A study of Mus musculus with 2 samples.

Results

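Crypt base stem cells outside mitosis were picked from 2 single-cell libraries of mouse intestinal epithelium by the genes they carried, and 207 of 12554 kept cells passed. The WT library came from wild-type mice and the MG53-TG library from mice with global overexpression of MG53 (gene Trim72), a TRIM family protein known for membrane repair. Both libraries were made on day 7 of 2.5% dextran sulfate sodium (DSS), a detergent-like agent that injures the gut lining, so no untreated cells enter any comparison. Crypts had been dissociated and sorted for live EpCAM-positive epithelial cells. There was 1 library per genotype and the labels do not tie cells to animals, so differences between the genotypes have no replicate check, no p-value is given, and genotype and library cannot be told apart. All intervals are 95% intervals that cover counting error only.

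A kept cell had 1354 or more UMIs (unique molecular identifiers, each standing for 1 captured transcript), 200 or more genes and no more than 25% of UMIs from mitochondrial genes. A selected cell also had at least 5 UMIs of Olfm4 and at least 1 UMI of 2 or more of 6 second markers, Lgr5, Ascl2, Smoc2, Gkn3, Axin2 and Tnfrsf19. It had fewer than 3 of 8 mitosis genes (Mki67, Top2a, Birc5, Ube2c, Nusap1, Cenpf, Ccnb2 and Cdk1), under 0.5% of its UMIs from 5 goblet genes and under 5% from Paneth defensins and Lyz1. These values chose the cells, so the levels of these genes are a description and support nothing.

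Crypt base columnar stem cells sit between the Paneth cells at the bottom of the small intestinal crypt and renew the epithelium. Wnt signals from neighbouring cells keep them in the stem state, with Lgr5 as a receptor that amplifies the signal, Ascl2 as a transcription factor of the stem program, and Axin2 as a feedback inhibitor and Wnt target. Notch signalling holds them back from the secretory fate that Atoh1 drives, and Olfm4, a secreted glycoprotein, is a Notch-responsive marker of these cells.

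The promoters of Olfm4, Ascl2 and Axin2 are shown because these genes define the cells and stand for the Notch and Wnt inputs. Each runs from 250 bases before to 50 bases after the RefSeq start, in build GRCm38.p6, and is written 5′ to 3′ on the strand of the gene. Capitals mark the letters TGGGAA, the core bound by the Notch partner RBPJ, or CTTTGAT, a core bound by TCF/LEF factors, searched on both strands. Olfm4 lies on chromosome 14 (chr14:80000052-80000351, plus strand), Ascl2 on chromosome 7 (chr7:142969215-142969514, minus strand) and Axin2 on chromosome 11 (chr11:108920099-108920398, plus strand).
Olfm4: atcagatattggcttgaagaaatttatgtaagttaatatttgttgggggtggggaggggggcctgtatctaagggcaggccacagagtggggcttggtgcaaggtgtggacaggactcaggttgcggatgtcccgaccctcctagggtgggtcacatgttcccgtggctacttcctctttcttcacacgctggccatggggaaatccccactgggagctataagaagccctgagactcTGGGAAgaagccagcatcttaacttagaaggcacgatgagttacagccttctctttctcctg
Ascl2: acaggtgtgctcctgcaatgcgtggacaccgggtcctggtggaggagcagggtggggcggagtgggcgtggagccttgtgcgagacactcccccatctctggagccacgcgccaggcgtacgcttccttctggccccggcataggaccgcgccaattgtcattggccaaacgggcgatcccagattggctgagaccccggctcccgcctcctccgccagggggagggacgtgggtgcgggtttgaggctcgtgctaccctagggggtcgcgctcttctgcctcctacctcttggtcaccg
Axin2: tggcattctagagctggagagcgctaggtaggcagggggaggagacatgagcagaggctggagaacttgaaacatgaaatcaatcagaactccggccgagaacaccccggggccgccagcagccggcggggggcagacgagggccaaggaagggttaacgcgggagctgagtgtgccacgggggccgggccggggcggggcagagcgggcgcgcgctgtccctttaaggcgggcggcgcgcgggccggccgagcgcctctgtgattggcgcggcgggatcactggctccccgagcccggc
The Olfm4 window held TGGGAA 1 time, as did 25.6% of 32851 RefSeq promoters of this length at least 1 time, and CTTTGAT, present in 3.73% of them, was in none of the 3 windows. Of the other second markers, Gkn3 had 1 window and Tnfrsf19 had 2, and CTTTGAT was in 1 of the Tnfrsf19 windows.

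The share of selected cells was near-equal in the libraries. In WT, 123 of 7401 kept cells passed, a share of 1.66% (exact interval 1.38 to 1.98). In MG53-TG, 84 of 5153 passed, a share of 1.63% (exact interval 1.30 to 2.01). The difference was -0.03 percentage points, with a Newcombe interval from -0.48 to 0.44. A further 344 WT and 218 MG53-TG cells met every other limit but carried 3 or more mitosis genes. Cells outside mitosis made up 26.3% of the WT and 27.8% of the MG53-TG cells that met the other limits, and the interval of that difference ran from -4.8 to 8.0 points.

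Depth differed between the libraries and moves with every count of detected genes. Per selected cell the median was 16552 UMIs and 3630 genes for WT, against 19198 UMIs and 4015 genes for MG53-TG. When the rule was run on cells thinned to 5000 UMIs, 73 WT cells (1.27%) and 71 MG53-TG cells (1.60%) passed, a difference of 0.33 points (interval -0.13 to 0.82). The libraries shared 8 kept barcodes, and none of these was a selected cell in either library.

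The label was checked against markers of other cell types. Stroma and endothelium markers had no UMI in the selected cells of either library, which allows up to 1.38 CPM per gene in WT and 1.80 CPM in MG53-TG. Some selected cells carried markers of another type: 4 WT and 4 MG53-TG cells had 3 or more of 6 tuft markers, 2 and 2 had 2 or more of 6 T cell markers, and 8 and 2 had over 0.3% of UMIs from 8 enterocyte markers. These 13 WT and 8 MG53-TG cells are called mixed cells, a group set after seeing the data, with 1 WT cell meeting 2 of the limits. The values that moved most are also given without them. Tuft, T cell and enterocyte markers set the limits, so shifts of those markers without the mixed cells follow in part from the definition. Scrublet marked 5 of the 123 WT and 4 of the 84 MG53-TG cells as likely doublets.

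Few cells lay at the Olfm4 limit. In WT, 3 cells with 5 or 6 Olfm4 UMIs lay just inside and 3 with 3 or 4 UMIs just outside, and in MG53-TG there was 1 on each side. More lay at the second marker limit, with 43 WT and 13 MG53-TG cells carrying 2 second markers and 46 and 9 carrying 1. At the mitosis limit, 30 WT and 27 MG53-TG cells carried 2 mitosis genes, and 45 and 31 carried 3.

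Olfm4 ranged widely among the selected cells. Per cell it ran from 251 to 12945 CPM (the UMIs of a gene scaled to a common library total) in WT, with a median of 3693, and from 601 to 12083 CPM in MG53-TG, with a median of 4540. The ranges of the libraries overlapped over nearly their whole width. WT cells with 2 second markers had a median Olfm4 of 2403 CPM, against 3772 with 3, 4766 with 4, 5636 with 5 and 6275 CPM with 6. In MG53-TG the corresponding medians were 3851, 3577, 4659, 6838 and 6242 CPM.

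**Figure D1:**
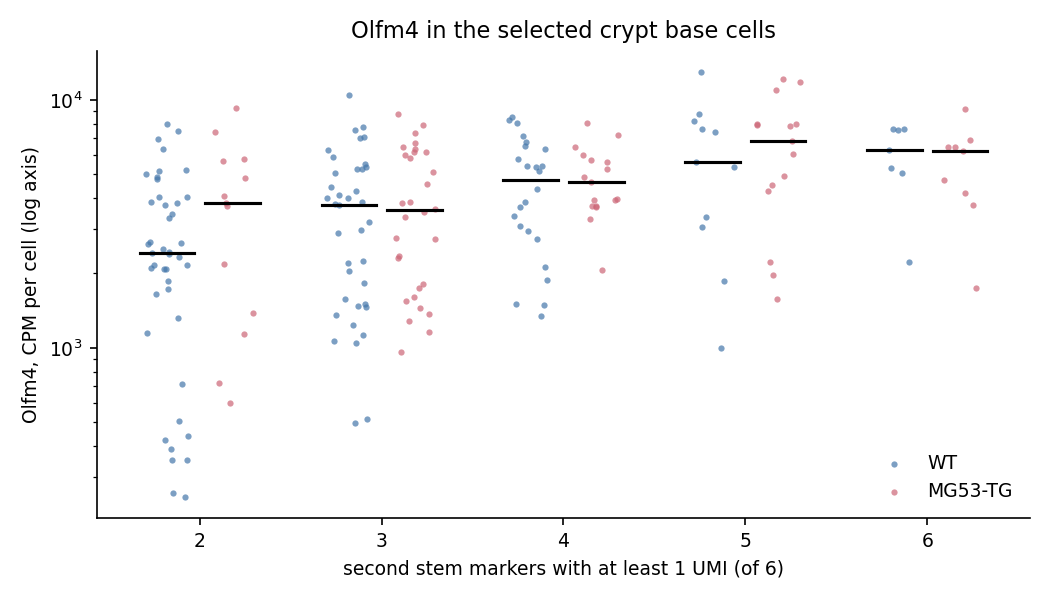
Olfm4 in CPM on a log axis for each selected cell, by the number of second stem markers with a UMI, in WT (blue, 123 cells) and MG53-TG (red, 84 cells), with black bars at the medians. The WT medians climb from 2403 CPM at 2 markers to 6275 CPM at 6, and the libraries overlap at every number.

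To read a rule gene without its own limit, cells were selected again with that gene left out. Lgr5 was then 42.2 CPM in 120 WT cells and 80.1 CPM in 79 MG53-TG cells, a log2 ratio of 0.93 (interval 0.52 to 1.33). Axin2 was 96.2 and 130 CPM, a log2 ratio of 0.43 (interval 0.13 to 0.74). Smoc2, a secreted matricellular protein, had a log2 ratio of 0.34 (0.06 to 0.63), and Tnfrsf19 had 0.84 (0.07 to 1.63). The intervals of Ascl2 (-0.11 to 0.72) and Gkn3 (-0.18 to 0.75) spanned 0. Olfm4 had a UMI in 69.5% of 197 WT and 62.8% of 156 MG53-TG cells that met every limit but its own. In these cells it was 2405 CPM in WT against 2682 CPM in MG53-TG, a log2 ratio of 0.16 (0.11 to 0.20). All 7 values were above 0, but the gates that give them share most of their cells.

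After thinning to 5000 UMIs, Lgr5 had a UMI in 17.1% of 123 WT cells (exact interval 10.9 to 24.9) and in 26.5% of 83 MG53-TG cells (17.4 to 37.3), with 1 shallower MG53-TG cell left out. Without thinning these shares were 35.8% and 57.1%. Thinned T cells, which should lack Lgr5, had it in 0.6% of 169 WT and 2.8% of 71 MG53-TG cells. Only T cells with 5000 or more UMIs entered, here and in the thinned T cell shares of other genes. This left out 741 of 910 T cells in WT and 274 of 345 in MG53-TG. Those that entered also carried epithelial RNA, with Atoh1 in a median over 20 draws of 15.7% in WT and 4.2% in MG53-TG. They are thus no clean background. Lgr5 is one of the rule's own markers in these cells, so its shares are a description.

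The selected cells were set against all other kept cells of the same library to describe their program. Of 5523 genes tested, 258 (4.67%) were at least 2-fold higher and 530 (9.6%) at least 2-fold lower in both libraries. The cells were chosen from the same counts, so these values are a description. Ratios were ranked among genes with at least 50 CPM in the selected cells of both libraries. This left out Lgr5 and Gkn3, at 43.2 and 41.9 CPM in WT. After Olfm4 and Ascl2, the genes with the highest ratios were Ifitm3, Igfbp4, Axin2, Cdca7, Aqp4, Clca3b, Kcnq1ot1, Jaml, Smoc2, Snhg4, Cd320, Myc and Cdk6. Ifitm3, an interferon-inducible membrane protein, was 853 CPM in selected and 137 CPM in other WT cells, and 1111 against 121 CPM in MG53-TG. Jaml, a junctional adhesion molecule, was 435 against 84.3 CPM in WT and 484 against 51.8 CPM in MG53-TG. Among 18 other stem genes tested, 15 were 2-fold higher in both libraries and none was 2-fold lower.

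Genes of growth went the same way. Of 17 ribosome biogenesis genes tested, 12 were 2-fold higher than in other cells in both libraries, and of 18 S phase genes 12 were. Genes of Wnt reception did not stand apart: of 4 Wnt receptor genes and 5 Wnt transducers tested, 0 passed 2-fold in either direction, while 3 of 5 Wnt targets were 2-fold higher. Antimicrobial and injury genes lay lower, with 7 of 9 at least 2-fold lower in both libraries, as were all 7 Paneth and all 7 goblet markers.

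**Figure D2:**
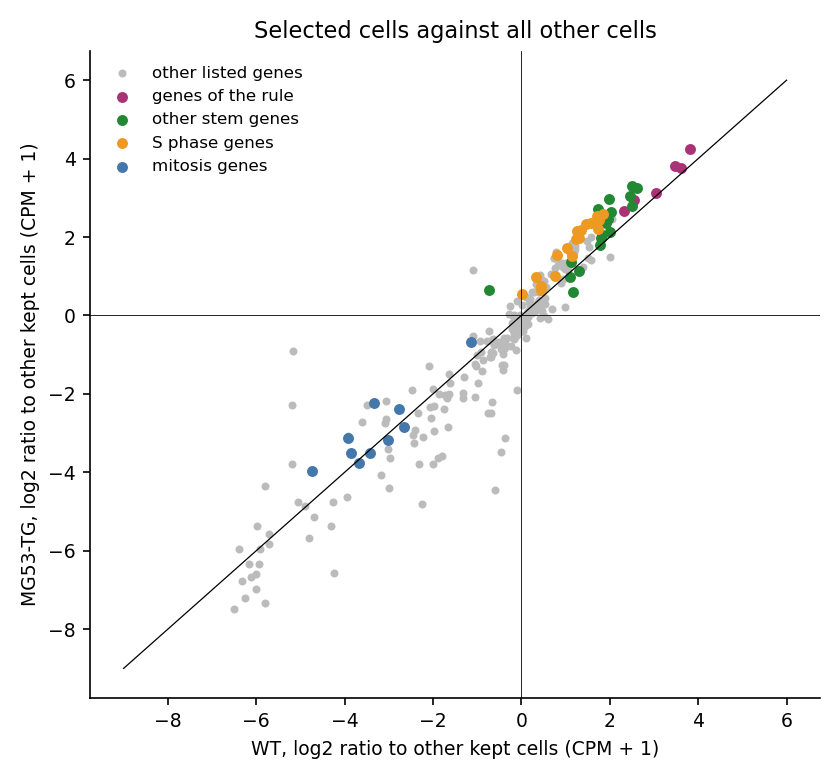
Log2 ratio of selected cells to other kept cells, WT on the x axis and MG53-TG on the y axis, each point a listed gene and the line marking equal ratios. Genes of the rule, S phase genes and most other stem genes lie at the upper right and mitosis genes at the lower left.

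Against the mitotic counterpart, selected by the same rule but with 3 or more mitosis genes, few genes were higher and more were lower. Of 5283 genes tested, 8 (0.151%) were at least 2-fold higher in both libraries and 174 (3.29%) at least 2-fold lower. All 18 further mitosis genes tested were 2-fold lower, and so were 4 of 20 S phase genes. Hmgb2, a chromatin protein of dividing cells, was 220 against 1353 CPM in WT and 265 against 1337 CPM in MG53-TG. The median log2 ratio of 17 other stem genes was 0.44 in WT and 0.48 in MG53-TG, with none past 2-fold, beside a median over all genes of -0.08 and -0.09. Among genes with at least 50 CPM in the selected cells of both libraries, Fabp6, the ileal bile acid binding protein, led the higher genes. However, 1 cell held 79.9% of its UMIs in WT and 1 cell 98.9% in MG53-TG.

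Cells with 2 or more Atoh1 UMIs were the intended comparison for the secretory side, but under the 0.5% goblet limit only 1 WT and 5 MG53-TG cells remained. With the limit at 5%, a choice made after seeing the data, there were 133 WT and 161 MG53-TG cells. Of 5577 genes tested, 327 (5.86%) were 2-fold higher and 621 (11.1%) 2-fold lower in the selected cells of both libraries. Of 18 S phase genes, 17 were 2-fold higher. Hells, a chromatin remodeller, was 57 against 4.75 CPM in WT and 95.8 against 4.91 CPM in MG53-TG. The trefoil peptide Tff3, a goblet product and part of the rule, was 192 against 19317 CPM in WT.

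Between the genotypes, most genes of the selected cells had near-equal levels. The transgene gave 1 UMI of Trim72 in 1 of 123 WT cells and 18 UMIs in 13 of 84 MG53-TG cells, a log2 ratio of 3.01 (interval 1.89 to 9.93). Its level in MG53-TG was 10.8 CPM in the selected cells and 10.0 CPM in their mitotic counterpart, against 51.1 CPM in all other cells. It was 51.1 CPM in T cells and 61.3 CPM in tuft cells. Thinned cells with a UMI made up a median over 20 draws of 4.2% of the selected, 22.5% of the T and 24.6% of the tuft cells, and overexpression was global, so neither of the last is a background. Of 5439 genes with at least 20 CPM in the higher library and 30 UMIs in all, 239 (4.39%) were at least 1.5-fold higher and 221 (4.06%) at least 1.5-fold lower in MG53-TG. The median log2 ratio, taken on CPM plus 1, was 0.04, and 55.6% of genes lay above 0.

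Stem genes outside the rule leaned to MG53-TG. Of 23 listed genes 19 were tested, 15 lay above 0, 6 were at least 1.5-fold higher and 0 at least 1.5-fold lower, with a median log2 ratio of 0.28, and of 0.22 over the same genes without the mixed cells. Phlda1, a pleckstrin homology protein known as an epithelial stem cell marker, was 12.9 CPM in WT against 48.5 CPM in MG53-TG, a log2 ratio of 1.83 (1.28 to 2.59). It had a UMI in 23 of 123 WT cells, against 40 of 84 from MG53-TG, or in a median over 20 thinnings of 6.5% of WT (range 4.9 to 10.6) and 19.9% of MG53-TG cells (13.3 to 26.5). Thinned T cells gave 8.3% in WT (5.9 to 11.8) and 8.5% in MG53-TG (4.2 to 11.3). The WT share of the selected cells was thus at the level of these deeper T cells.

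Cd44, a hyaluronan receptor, was 48.3 CPM in WT against 98.8 CPM in MG53-TG, a log2 ratio of 1.02 (0.67 to 1.40). Its median over cells was 39.1 CPM in WT against 81.1 CPM in MG53-TG, and after thinning a median over 20 draws of 22.4% and 38.0% of cells had a UMI, against 4.4% and 5.6% of T cells. Soat1, a cholesterol-esterifying enzyme, had a log2 ratio of 0.81 (0.52 to 1.11) and Rgmb, a BMP co-receptor, 0.65 (0.30 to 1.02). Cdca7, a Myc-responsive gene, had 0.60 (0.41 to 0.80). Ephb2, the receptor that positions cells along the crypt, went the other way at -0.47 (-0.96 to -0.01), or -0.24 after thinning.

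**Figure D3:**
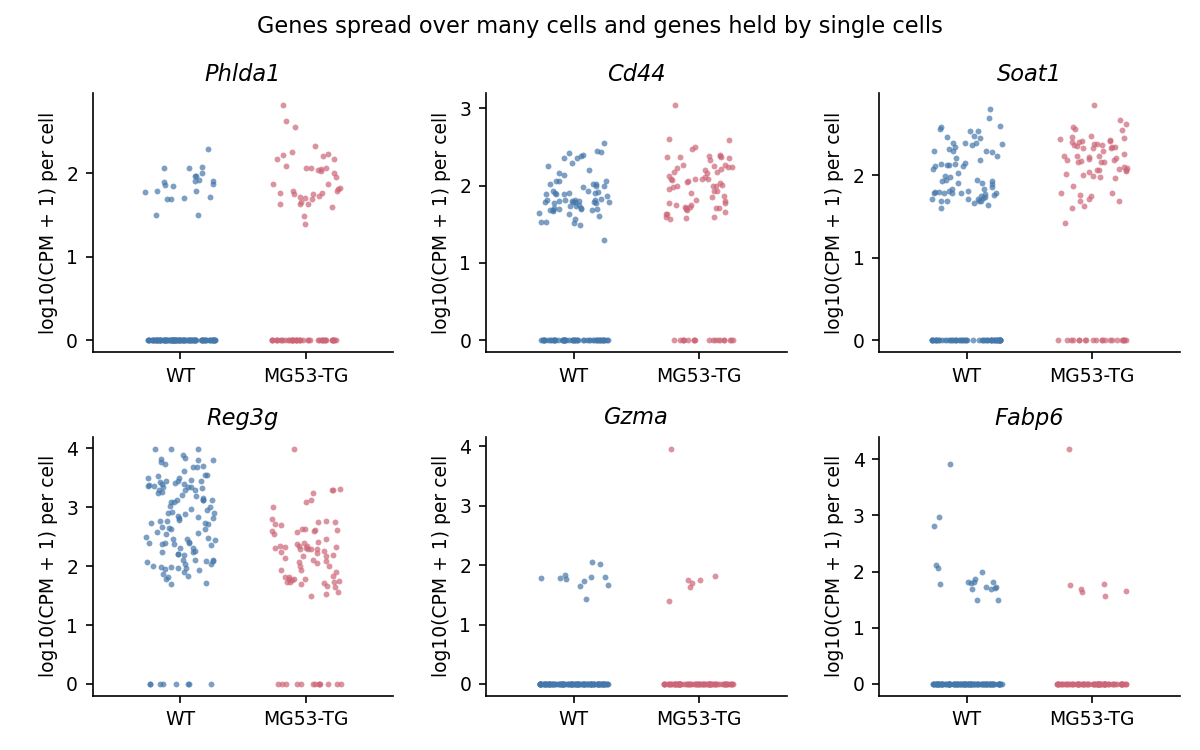
Log10 of CPM plus 1 per selected cell for 6 genes, in WT (blue) and MG53-TG (red), where points at 0 are cells with no UMI. Phlda1, Cd44 and Soat1 are spread over many cells, while Gzma and Fabp6 each hold 1 MG53-TG cell far above the rest.

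Few genes of the Wnt and Notch lists passed the fold. Of 4 Wnt receptor genes tested 1, Fzd5, was 1.5-fold lower (log2 ratio -0.59, -1.15 to -0.08), a value at the fold that ran from -0.86 to -0.42 over the alternatives and lost the call in several, such as -0.56 without doublets. No Wnt transducer of 6 passed the fold. Of the 5 genes tested from the Wnt target list 1, Sox4, passed, at 1.0 (0.76 to 1.26), and its value was 0.40 without the mixed cells. The Notch effector Hes1 was 92.4 CPM in WT against 138 CPM in MG53-TG, a log2 ratio of 0.57 (0.30 to 0.85). It was 0.09 with no mitosis gene allowed. Of 5 Notch genes tested 0 passed the fold. With no mitosis gene allowed 3 of them did, 2 higher and 1 lower, beside 440 higher and 347 lower of all 4644 genes tested there. Atoh1 gave 5 UMIs in WT and 0 in MG53-TG, where the count of 0 allows up to 1.80 CPM. Among 6 genes of cell polarity and asymmetric division, Llgl2 was lower (-0.64, -1.31 to -0.04) and Numa1, which orients the spindle, had 0.51 (0.11 to 0.94), and after thinning they were -0.27 and 0.31.

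S phase genes leaned to MG53-TG, by an amount that changed with the mitosis limit and after thinning. All 19 tested had a log2 ratio above 0, with a median of 0.45, and 4 were at least 1.5-fold higher, while without the mixed cells 17 of 19 lay above 0 and 2 were 1.5-fold higher. With no mitosis gene allowed, which left 45 WT and 30 MG53-TG cells, 14 of the same 19 lay above 0, with a median of 0.23. After thinning to 5000 UMIs 15 of them did, with a median of 0.18. Cells with 2 mitosis genes made up 30 of the 123 WT and 27 of the 84 MG53-TG cells. Hells had 0.74 (0.40 to 1.10), Dut, which clears dUTP, 0.67 (0.40 to 0.95), Cdt1, a licensing factor, 0.65 (0.22 to 1.11) and Mcm4 of the replicative helicase 0.59 (0.20 to 1.02). Hells was 0.22 with no mitosis gene allowed, and after thinning Cdt1 was 0.18 and Mcm4 0.31. After thinning, the WT cells had a median of 3 of 25 S phase genes (quartiles 2 and 6) and the MG53-TG cells a median of 5 (quartiles 3 and 7). Over 20 thinnings the mean ran from 3.65 to 4.14 in WT and from 4.72 to 5.18 in MG53-TG. The spread of cells within each library is wider than this gap.

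**Figure D4:**
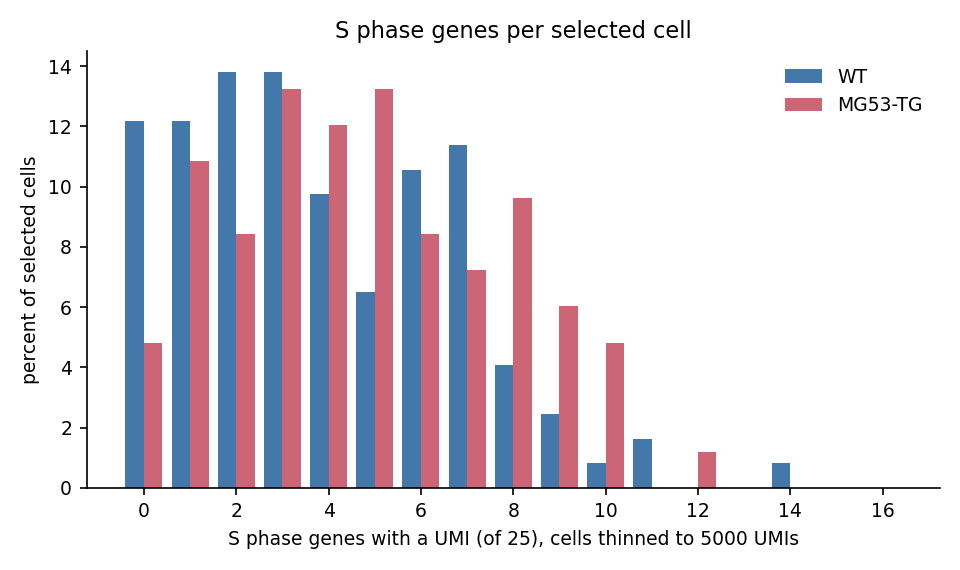
Percent of selected cells by the number of S phase genes with a UMI, of 25, after thinning to 5000 UMIs, in WT (blue, 123 cells) and MG53-TG (red, 83 cells). Cells without any S phase gene made up 12.2% for WT against 4.82% for MG53-TG, and both libraries span 0 to at least 12 genes.

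Other growth lists leaned the same way. So did a list of stress genes of cell isolation (immediate early and heat shock genes). Of its 7 genes tested 6 lay above 0, with a median of 0.36 and 1 past the fold. Without the mixed cells 5 lay above 0, with a median of 0.32. Of 17 ribosome biogenesis genes tested 15 lay above 0, with a median of 0.33 and 0 past the fold, but 12 with a median of 0.23 without the mixed cells, and 10 with a median of 0.08 with no mitosis gene allowed. Of 18 genes of the Atf4 amino acid response 17 lay above 0, with a median of 0.38 and 4 at least 1.5-fold higher. With no mitosis gene allowed 9 were 1.5-fold higher, with a median of 0.53, and 8 were with 3 second markers. Over all genes tested, 239 of 5439 were 1.5-fold higher. This rose to 440 of 4644 with no mitosis gene allowed and 303 of 5566 with 3 second markers. Asns, which makes asparagine, had 0.87 (0.51 to 1.26), or 1.7 with no mitosis gene, and Phgdh, the entry enzyme of serine synthesis, 0.81 (0.46 to 1.18). All 6 MHC class II genes tested lay above 0, with a median of 0.33 and 0 past the fold, but over the same 6 genes 3 lay above 0 after thinning, with a median of 0.13, and 2 with no mitosis gene allowed, with a median of -0.05.

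PPAR target genes did not lean to MG53-TG in these cells. PPARs are nuclear receptors that switch on fatty acid oxidation. Of 30 targets tested 6 lay above 0, 0 were 1.5-fold higher and 3 were 1.5-fold lower, with a median log2 ratio of -0.15. Without the mixed cells 0 of the 30 passed the fold, with a median of -0.14. With no mitosis gene allowed 13 lay above 0 and 5 were 1.5-fold lower, beside 347 of all 4644 genes tested there, with a median of -0.10. With 3 second markers 10 lay above 0. Hadha, of the mitochondrial trifunctional protein, had 0.24 (0.08 to 0.40) and Cpt2, which completes the import of fatty acids into mitochondria, -0.47 (-0.87 to -0.10), or -0.20 with no mitosis gene allowed. The transcription factor gene Creb3l3 had -0.74 (-1.21 to -0.31), but -0.19 without the mixed cells and 0.10 after thinning. Fabp1 had -1.32 (-1.44 to -1.20), but -0.08 without the mixed cells, and its CPM in the selected cells was below that in T cells of the same library. The receptor gene Ppara gave 22 UMIs in WT and 20 in MG53-TG (log2 ratio 0.22, -0.71 to 1.18).

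Antimicrobial genes were lower in MG53-TG. All 6 tested lay below 0 and 5 were at least 1.5-fold lower, with a median of -0.94, and over the same 6 genes -1.13 without the mixed cells, where 3 of them passed the fold. The lectin Reg3g was 1796 CPM in WT against 522 CPM in MG53-TG, and Reg3b was 3960 and 1777 CPM. T cells, which should lack both, held 1882 and 1069 CPM of Reg3g and 4654 and 2906 CPM of Reg3b, and WT barcodes under 100 UMIs held 4120 and 11773 CPM. After thinning, Reg3g had a UMI in a median over 20 draws of 78.5% of WT and 53.0% of MG53-TG selected cells, against 76.9% and 56.3% of T cells. For both lectins the summed levels of the selected cells were below those of T cells, and no expression by the selected cells is read from them. Single selected cells reached 22508 CPM of Reg3b in WT and 36454 CPM in MG53-TG, with medians over cells of 932 and 205 CPM. Whether this RNA was free or their own was not tested. Lcn2, an iron-scavenging protein, had 98 UMIs in 24 WT cells and 4 UMIs in 3 MG53-TG cells. Its log2 ratio was -3.76 (-6.14 to -2.83). After thinning, a median of 9.8% and 1.2% of selected cells had a UMI, against 1.2% of WT T cells. Mitotic counterparts differed far less in Lcn2, with 41.5 CPM for WT against 33.3 CPM for MG53-TG. Their thinned medians were 11.5% and 10.6% of cells. The drop is thus reported for the selected cells only, and its cause was not tested.

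**Figure D5:**
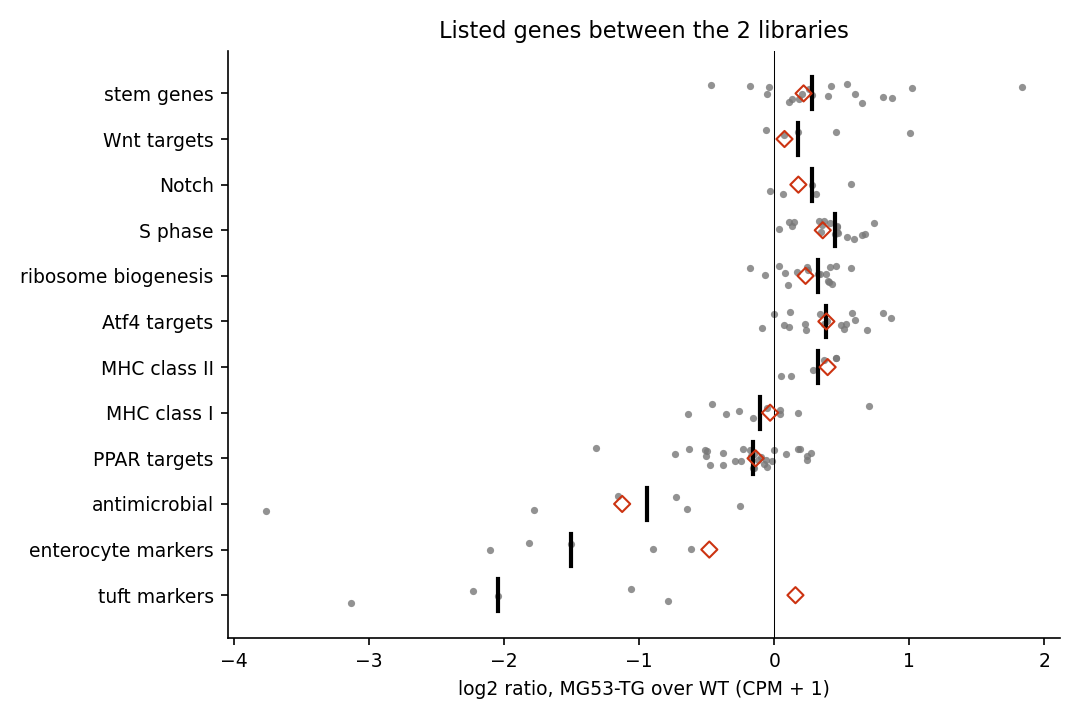
Log2 ratio of MG53-TG over WT for each listed gene tested (grey points), with black bars at the list medians and red diamonds at the medians of the same genes without mixed cells. S phase genes have a median of 0.45 and PPAR targets -0.15. The enterocyte median moves from -1.51 to -0.48 without mixed cells, a group defined in part by these markers.

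Several of the most extreme ratios came from single cells. All 80 UMIs of Sprr2a3 were in 1 MG53-TG cell, and 189 of 195 Gzma UMIs were in 1 MG53-TG cell. Gzma, a T cell granule protease, had a log2 ratio of 4.08 with all cells and -0.40 without the top cell of each library. Sh2d6, Lrmp and Dclk1 of tuft cells were lower in MG53-TG, from -2.23 to -2.05, with their UMIs in 4 to 8 WT cells. Without the mixed cells Lrmp was -0.66, and Sh2d6 and Dclk1, both among the tuft markers that define those cells, lay above 0. Ccl5 (2.25), Slc51b (1.25), Clca4a (-2.59) and Guca2b (-1.85) changed sign without the mixed cells. Spread over more cells were Ctnnal1 (1.41, 25 WT and 36 MG53-TG cells) and Iffo2 (1.52, 12 and 28). So were Nr1h3 (-2.06, 33 and 7), which encodes the oxysterol receptor LXR alpha, and Slc7a8 (-1.80, 42 and 14), an amino acid transporter. In that order, the log2 ratios after thinning were 1.01, 2.25, -4.36 and -0.76. The mitotic counterpart of WT and MG53-TG held 15.7 and 19.2 CPM of Ctnnal1 and 4.13 and 8.61 CPM of Iffo2. It held 12.2 and 12.6 CPM of Nr1h3 and 32.2 and 29.8 CPM of Slc7a8.

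Small intestinal regional genes were detected and colon genes were near 0. Of 5 regional genes tested 2 lay above and 3 below 0, with a median log2 ratio of -0.03. The same 5 had a median of -0.49 without the mixed cells, with 1 above 0, -0.77 with no mitosis gene allowed, with 0 above 0, and -0.53 after thinning. Gata4 gave 68 UMIs for WT, against 33 for MG53-TG (log2 ratio -0.64, -1.31 to -0.04), and Onecut2, a transcription factor of the proximal small intestine, had 408 and 227 (-0.46, -0.71 to -0.23). Gata6 had 0.09 (-0.26 to 0.44), Osr2 -0.03 (-0.59 to 0.53) and Fabp6, held mostly by 1 cell in each library, 1.03, but -5.39 without the mixed cells and -2.79 without the top cell of each library. Colon genes summed to 4.60 CPM in WT against 4.19 CPM in MG53-TG over 8 genes.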

How the data were processed

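Droplet libraries (10x Genomics 3′ chemistry) were deposited as matrices of raw UMI counts per gene and barcode, made by the authors with Cell Ranger, version 4 for WT and 6.0.1 for MG53-TG per the file headers. The submitters' processing notes name mm10 and Seurat. The WT table lists 2005718 barcodes, empty droplets included, and the MG53-TG matrix lists 12361, each with at least 500 UMIs, so WT alone shows free RNA. The libraries hold 158455748 and 128227881 UMIs.

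Counts of the selected cells were summed per library and scaled to CPM. With 1 library per group no test was run. Log2 ratios carry a pseudocount of 1 CPM, except those of rule genes in cells selected without that gene, which carry none. All ratio intervals are exact conditional binomial intervals without a pseudocount, so at low counts a value can lie off center in its interval. Shares have exact binomial intervals, and all intervals cover counting error only. A fold of 1.5 was used between libraries and of 2 between cell groups. Thinning drew 5000 UMIs per cell without replacement. Doublets were the highest Scrublet scores (scanpy 1.11.5), at 0.8% per 1000 cells, and stayed in unless stated. The call was tested on simulated data. Named genes were the rule genes, list members, the 12 highest and 12 lowest library ratios, the 15 highest ratios to other cells, and the 10 highest and lowest to the mitotic and Atoh1 cells. Ratios between cell groups were ranked among genes with at least 50 CPM in the selected cells of both libraries. The members and gene lists were chosen with earlier results of these data known. Promoters are from RefSeq. Alternatives changed the limits of the rule, the scaling, the pseudocount and the gene minimum, removed doublets or thinned the cells, while leaving out mixed cells or the top cell of a gene and the wider goblet limit were added after seeing the data. Some genes that the naming rule covers are not reported here.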

Additional observations from a re-analysis of the deposited data

Results flagged for a closer look

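The following signals come from WT barcodes under 100 UMIs, which enter no log2 ratio, served above only as a level of free RNA for Reg3g and Reg3b, and pool 5978198 UMIs. They were singled out because each exceeds the limit that a count of 0 allows. Antimicrobial and enterocyte RNA was high there, with Reg3b at 11773 CPM, Reg3g at 4120, Apoa1 at 6584, Fabp1 at 2509 and Fabp6 at 272 CPM, and the T cell gene Gzma was at 2812 CPM. Olfm4 was at 192 CPM, against 3610 CPM in the selected WT cells. The other stem genes were low, with Smoc2 at 16.2 CPM, Ascl2 at 4.85 and Lgr5 at 1.67 CPM. Phlda1 was at 20.4 CPM, above its 12.9 CPM in the selected WT cells, Cd44 at 13.4 and Lcn2 at 10.4 CPM. No such barcodes were analysed for MG53-TG, whose table starts at 500 UMIs.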

How the results depend on the processing

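The share difference lay within its own interval under 12 of 13 alternatives and was -0.48 points with 1 of 6 second markers. Genes 1.5-fold higher and lower numbered 440 and 347 of 4644 tested with no mitosis gene allowed. They numbered 475 and 446 of 8123 with no CPM minimum and 54 and 52 of 2548 at 50 CPM, these 2 settings by construction. With a pseudocount of 5 CPM 146 genes were higher. Median-of-ratios scaling gave 197 higher and 260 lower, against 239 and 221. At 50 CPM, genes 2-fold higher and lower were 134 and 300 against other cells, 5 and 80 against mitotic cells and 169 and 400 against Atoh1 cells. Single-cell means gave 902 lower than other cells, and thinning 16 higher than mitotic cells. Of list medians, MHC class II was -0.024 after thinning over fewer genes (0.13 over the same 6) and -0.051 with no mitosis gene, the regional list -0.77 with no mitosis gene and -0.49 without mixed cells, and the antimicrobial list -1.79 without mixed cells, over the 5 of its genes tested there (-1.13 over the same 6). The enterocyte median was -0.84 without doublets, -0.79 at a 10% mitochondrial limit, -1.01 with 3 second markers (-1.58 over the same 5 genes), -3.22 with no mitosis gene, -0.90 with no CPM minimum, which adds genes (-1.51 over the same 5), and -0.40 without mixed cells (-0.48 over the same 5). Tuft markers had no value in 5 alternatives because none was tested there.

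Of 156 named genes, 84 had a counting interval that excluded 0, and 16 of these changed sign under at least 1 alternative. Of the 72 whose interval spanned 0, 48 changed sign. The 16 were these. With no mitosis gene the log2 ratios were -1.45 for Ccl5 and Slc51b, 0.65 for Sh2d6, 1.0 for Dclk1, -0.079 for Olfm4, -0.11 for Clca3b, -0.10 for Kcne3, 0.36 for Fabp1, 0.045 for Reg1, -0.30 for H2-Aa, -0.24 for Cd74 and -2.70 for Fabp6. Without mixed cells they were -0.49 for Gzma, -0.93 for Ccl5, -0.30 for Slc51b, 0.11 for Sh2d6, 0.92 for Clca4a, 1.21 for Dclk1, 0.21 for Guca2b and -5.39 for Fabp6. Without the top cell they were -0.40 for Gzma, -0.31 for Slc51b and -2.79 for Fabp6. Without doublets Gzma was -0.41 and Ccl5 -2.73, and with 3 second markers -0.77 and -2.72. After thinning Clca3b was -0.053, Creb3l3 0.10, H2-Aa -0.042 and Cd74 -0.024. The cause was not tested. No paired analysis was possible because each group has 1 library and no test was run.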
